A study of Mus musculus with 4 samples.

Results

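The genes described here are 10 genes read as markers of T cells and related lymphocytes: Ptprc, Cd3d, Cd3e, Cd3g, Itgae, Thy1, Cd2, Klrd1, Cytip and Arhgdib. Not all are particular to lymphocytes. Ptprc, Cytip and Arhgdib are active in leukocytes more widely, and Itgae also in some dendritic cells. The 10 were proposed with earlier results of these data known and were taken by gene symbol. All 10 were on the array with 11 probe sets between them, and they are 10 of 12393 genes tested. For each gene the probe set with the highest mean log2 signal over the 4 arrays is used, and Cytip alone had a further one.

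Sorted cell populations from back skin of K14-GFP-actin mice at postnatal day 49 were compared on Affymetrix arrays, to find the genes that set bulge basal cells apart from the epidermis as a whole. The bulge group (2 arrays) held living GFP-positive cells high in surface α6 integrin and in CD34, which together pick out the basal layer of the hair follicle bulge. The total group (2 arrays) held all living GFP-positive cells, bulge cells included. All the mice carried the same transgene, a GFP and actin fusion under the keratin 14 promoter, a promoter that basal keratinocytes use. The labels do not say whether replicates came from separate animals, and the p-values cover no more than the spread between these arrays, part or all of which may be technical. Groups follow the sample titles, because the cell type label reads the same on all 4 samples. The number of arrays limits the precision, and n is 2 arrays per group throughout. Cd34 had signals of 15697 and 14034 on the bulge arrays, against 844 and 1144 on the total arrays, while Itga6, which encodes the α6 integrin, had 3312 and 1693 on the bulge arrays, against 5642 and 3491 on the total arrays.

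Mouse epidermis is home to resident T cells, most of which carry a γδ T cell receptor and extend dendrites between keratinocytes. Their receptor reaches the cell surface only together with the CD3 chains, which carry the signal inward, and they are held in the epithelium by the αE integrin, which binds E-cadherin on keratinocytes. Thy-1 is their classical surface marker in mice. Such cells do not make keratin 14, and the gate on GFP selects cells in which the keratin 14 promoter has been active.

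Every member was lower in the bulge group on both arrays than on either total array. The median log2 difference over the 10 genes, bulge minus total, was -3.50, against -0.02 over all genes tested. The fitted differences of single members lay between -4.30 and -2.52, and most rest on bulge signals too dim to give them an order. Groups without overlap in this direction were found for 20.5% of all genes. Log2 differences as low as the smallest of the members' or lower were found for 162 genes, 1.31% of those tested. The principal test, limma with Benjamini-Hochberg adjustment over all genes, called 0 members and 0 genes in all (0% lower and 0% higher). At an unadjusted p under 0.05 it had 655 lower genes (5.29%) and 642 higher ones (5.18%), and all 10 members were among the lower. With an intensity trend in its variance prior, limma called 3 members lower, Ptprc, Itgae and Cytip, against 0.524% of all genes. An offset of 32 added to the signal called Ptprc, against 0.153% of all genes. A filter on the mean signal over the 4 arrays called 1.08% of the genes kept lower. It kept 3 members, whose total arrays carried their means over the level, and the call of Cytip among them is not read as a result. The trended fit's calls of members did not hold with either total array left out. Each member's log2 difference stayed below 0 with any 1 of the arrays left out. "Fell" and "rose" are used below for genes called in the trended fit on all 4 arrays. The SEs of Ptprc, Itgae and Cytip are from the trended fit, and all other SEs are from the principal fit. An exact permutation test of 2 against 2 arrays cannot give a two-sided p below 0.333.

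**Figure D1:**
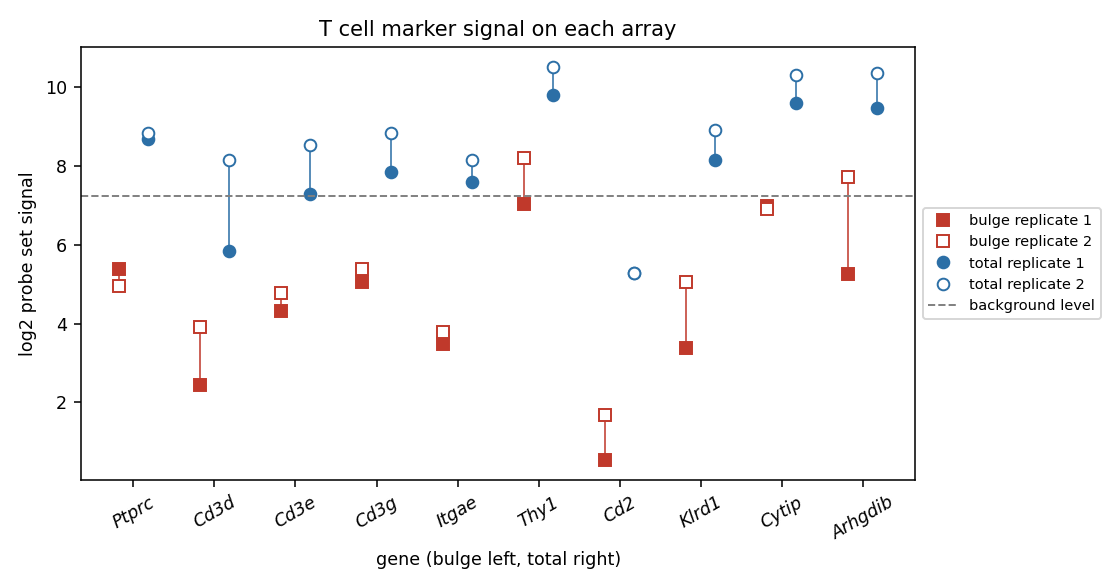
Log2 probe set signal of the 10 T cell markers on each array, with bulge arrays as squares on the left and total arrays as circles on the right of each gene, replicate 1 filled and replicate 2 open. The dashed line is the background level at a log2 signal of 7.23. Both bulge squares lie under both total circles for all 10 genes, and most squares lie under the line.

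The deposited table has no detection flags, so a background level was set at a signal of 150.0, the 95th percentile over 67 olfactory, vomeronasal and taste receptor genes. Of the members, 8 were above it on both total arrays, Cd3d was above it on 1, and Cd2 on neither. No member was above it on both bulge arrays, and Thy1 and Arhgdib were above it on 1 of them. Where a gene lay under this level on the bulge arrays, its fold is a lower bound, the total mean over the bulge mean with each bulge signal under 150.0 set to 150.0. Such bounds leave out sampling error. With signals under 150.0 set to that value on all arrays, the median difference over the 10 genes was -1.20, against 0 over all genes. In sorted bulk RNA, fewer cells of a type and less RNA per cell cannot be told apart.

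The 3 CD3 genes encode the γ, δ and ε chains of the T cell receptor complex. Cd3g had signals of 33.1 and 41.3 on the bulge arrays, against 227 and 456 on the total arrays. Its log2 difference was -3.12 ± 0.49 (SE), and the bound is at least 2.15-fold lower in the bulge group (limma adjusted p of 0.108). Cd3e had 20.1 and 27.5 on the bulge arrays, against 155 and 367 on the total arrays. The first of these total values was just over the background level. The log2 difference of Cd3e was -3.34 ± 0.55 (SE), bounded at 1.59-fold lower or more (limma adjusted p of 0.110). Cd3d had 5.41 and 15.1 on the bulge arrays, against 57.6 and 284 on the total arrays. Its total arrays stood further apart than those of any other member, and 1 of them was under the background level, so no fold is given. Its log2 difference was -3.82 ± 0.92 (SE), with a limma adjusted p of 0.211. For all 3 genes the groups did not overlap, and replicate 2 was the higher array in each group.

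The 3 genes lie next to each other in one cluster on mouse chromosome 9, and in RefSeq (GRCm38.p6) the starts of Cd3g and Cd3d lie 1355 bases apart on opposite strands. RefSeq promoter sequence was available for 6 of the 10 members. The 250 bases before the start of each CD3 gene are shown because the 3 genes serve a single receptor complex and were lower together on these arrays. Capitals mark matches, on either strand, to the RUNX motif TGTGGT, the ETS motif AGGAAG, the GATA motif AGATAA, the E-box CAGNTG and the TATA motif TATAAA, and no matches overlapped in these windows.
Cd3g, chr9:44980432-44980681, minus strand: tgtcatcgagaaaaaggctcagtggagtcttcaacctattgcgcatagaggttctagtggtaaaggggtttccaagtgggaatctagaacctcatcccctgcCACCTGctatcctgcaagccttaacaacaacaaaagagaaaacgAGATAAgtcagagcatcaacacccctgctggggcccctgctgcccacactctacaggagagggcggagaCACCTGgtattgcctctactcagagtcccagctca
Cd3d, chr9:44981536-44981785, plus strand: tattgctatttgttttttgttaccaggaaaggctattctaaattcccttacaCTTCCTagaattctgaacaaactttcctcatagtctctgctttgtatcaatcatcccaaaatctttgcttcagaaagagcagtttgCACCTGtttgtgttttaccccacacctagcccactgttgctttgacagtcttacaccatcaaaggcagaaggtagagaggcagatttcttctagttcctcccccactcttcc
Cd3e, chr9:45009612-45009861, minus strand: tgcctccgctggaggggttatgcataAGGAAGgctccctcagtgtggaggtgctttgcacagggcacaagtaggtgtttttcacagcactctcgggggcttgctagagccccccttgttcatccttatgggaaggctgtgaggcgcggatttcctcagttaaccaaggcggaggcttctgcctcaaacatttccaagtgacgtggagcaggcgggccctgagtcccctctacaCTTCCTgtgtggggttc
The Cd3g window held 2 E-box matches and 1 GATA match, the Cd3d window 1 ETS and 1 E-box match, and the Cd3e window 2 ETS matches. None of the 3 windows held a RUNX or a TATA match. Over 32851 promoter windows of the same length, 44.8% held the E-box, 29.5% the ETS, 14% the RUNX, 12.4% the TATA and 9.99% the GATA motif. These matches describe letters in the sequence and say nothing of binding.

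Ptprc encodes CD45, the receptor phosphatase found on nearly all leukocytes. It had signals of 41.4 and 30.7 on the bulge arrays, against 411 and 452 on the total arrays. The arrays within each group lay close together and the groups were far apart. Ptprc fell by 3.60 ± 0.42 on the log2 scale (SE, adjusted p of 0.0300 in limma with the trend), bounded at 2.88-fold or more. In the principal limma fit its adjusted p was 0.0729, the lowest value any gene reached, which 38 genes shared.

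Itgae encodes the αE chain, which pairs with the β7 chain on intraepithelial lymphocytes and is also made by some dendritic cells. Itgae had 11.2 and 13.7 on the bulge arrays, against 191 and 283 on the total arrays. It fell by 4.23 ± 0.50 on the log2 scale (SE, adjusted p of 0.0335 in limma with the trend), bounded at 1.55-fold or more because its total signals were near the background level. Its adjusted p in the principal limma fit was also 0.0729.

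Thy1 encodes Thy-1, a lipid-anchored surface protein of mouse T cells that fibroblasts and neurons also carry. Thy1 had 131 and 294 on the bulge arrays, against 877 and 1444 on the total arrays. Bulge replicate 2 was above the background level. Its log2 difference was -2.52 ± 0.56 (SE), with the bulge group at least 5.36-fold lower and a limma adjusted p of 0.183. Cd2, an adhesion receptor that binds CD48 in mice, had 1.46 and 3.21 on the bulge arrays, against 38.8 and 39.1 on the total arrays. All 4 values were under the background level, so the log2 difference of -4.17 ± 0.51 (SE) has no fold and no order against the other members.

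Klrd1 encodes CD94, a lectin-like receptor of natural killer cells and some T cells that pairs with NKG2 proteins. It had 10.5 and 32.9 on the bulge arrays, against 283 and 474 on the total arrays. The log2 difference was -4.30 ± 0.67 (SE), bounded at 2.44-fold lower or more, and its limma adjusted p was 0.108 in the principal fit and 0.0518 with the trend.

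Cytip and Arhgdib encode proteins of the leukocyte interior. Cytip, whose protein binds cytohesins and bears on leukocyte adhesion, had 126 and 119 on the bulge arrays, against 764 and 1246 on the total arrays. Cytip fell by 2.997 ± 0.39 on the log2 scale (SE, adjusted p of 0.0376 in limma with the trend), bounded at 6.51-fold or more. Its other probe set had 3.49 and 16.7 on the bulge arrays, against 179 and 439 on the total arrays. That probe set, whose type can match transcripts of more than 1 gene, differed by -5.20 in the same direction without overlap, and its bound was 1.87-fold. Arhgdib had 37.9 and 211 on the bulge arrays, against 698 and 1299 on the total arrays. Its bulge arrays stood far apart, with 1 of them above the background level. The log2 difference was -3.41 ± 0.89 (SE), with the bulge group at least 5.35-fold lower and a limma adjusted p of 0.241. Without bulge replicate 1 the difference was -2.17.

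**Figure D2:**
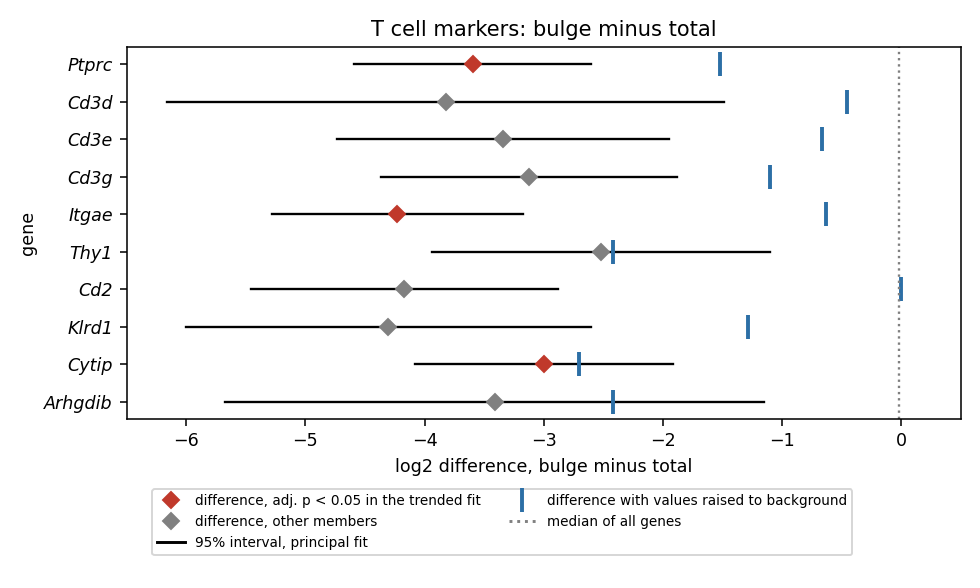
Log2 difference, bulge minus total, of each T cell marker (diamonds) with its 95% interval from the principal limma fit (lines). Red diamonds are Ptprc, Itgae and Cytip, which had an adjusted p under 0.05 in the trended fit, blue ticks are the differences after values were raised to the background level, and the dotted line is the median of all genes at -0.02. No interval reaches 0, and the ticks lie between -2.70 (Cytip) and 0 (Cd2).

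How far the members differed among themselves is not measured by these arrays, because 8 of the 10 were under the background level on both bulge arrays. With signals raised to that level their differences lay between -2.70 (Cytip) and 0 (Cd2), where Thy1 had -2.42 and Klrd1 -1.29. On the total arrays, replicate 2 was above replicate 1 for all 10 members, with a median log2 difference between replicates of 0.73, against -0.14 over all genes. On the bulge arrays replicate 2 was higher for 8 members, all but Ptprc and Cytip, with a median of 0.80, against -0.05 over all genes. The summed signal of the members was 417 and 788 on the bulge arrays, against 3703 and 6345 on the total arrays. What set the same-numbered arrays apart was not tested.

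**Figure D3:**
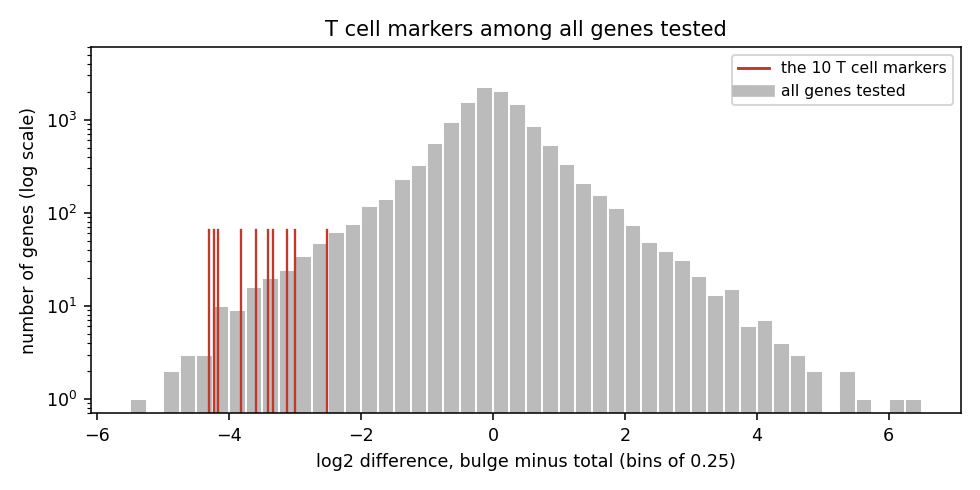
Number of genes (log scale) by log2 difference, bulge minus total, in bins of 0.25 over 12393 genes, with red lines at the differences of the 10 T cell markers. The red lines stand between -4.30 and -2.52, in the lower tail of the grey bars.

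Other lymphocyte genes were read from lists chosen by role. Over 6 such lists 113 gene symbols were looked for, some of them older names or names of whole loci. Names that led to the same measured gene within a list are counted once. They gave 77 measured genes, and 53 of the 77 were under the background level on both total arrays. Groups did not overlap for 29 genes lower in the bulge group, where 20.5% of all genes did so, and for 8 genes higher, where 18% did. The same shares over all genes apply to the counts of each list below. The median log2 difference over the 77 genes was -0.30. In the trended fit 1 of them was called lower, Trgv1, and 1 higher, Id2, and in the principal fit 0 were called.

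Of 26 T cell receptor gene symbols looked for, counted in the same way and some of them names of whole loci, 5 had a probe set of their own. Of these 5 genes, 4 were lower without overlap, with a median difference of -1.50. With the probe sets of each gene averaged, 2 were lower without overlap and the median was -0.81. Trgv4, a variable segment of the γ chain, had 59.3 and 46.2 on the bulge arrays, against 213 and 291 on the total arrays (log2 difference of -2.25 ± 0.41, SE). Trgv1, another γ segment, had 4.51 and 3.11 on the bulge arrays, against 144 and 160 on the total arrays, the first of which was under the background level. It fell by 5.34 on the log2 scale (adjusted p of 0.0297 in limma with the trend), and no fold is given. With signals under the background level raised to it, the difference of Trgv1 was -0.05. The segments resemble their neighbours in sequence, so a probe set can pick up more than one of them. Cd247, the ζ signalling chain, had 63.8 and 66.8 on the bulge arrays, against 157 and 219 on the total arrays. The β chain segment Trbv1 had a difference of -0.97, and Trbv13-2 had 1.02 with overlapping groups.

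Genes of receptor signalling were mostly dim. Of 17 measured, 8 were lower without overlap and 1 higher, the median difference was -0.47, and 14 were under the background level on both total arrays. Zap70, the kinase that docks on the CD3 and ζ chains, had 658 and 773 on the bulge arrays, against 878 and 883 on the total arrays, a difference of -0.30 ± 0.37 (SE). Its 95% interval included 0. The costimulator gene Icos had -0.52, Prkcq 0.49, the surface glycoprotein gene Cd5 0.05 and the kinase gene Fyn 1.38, and the groups overlapped for Icos, Prkcq and Cd5. Among the genes under the background level on all 4 arrays, Trat1, Fyb and Ptpn22, named after their values were seen, had fitted differences of -4.13, -2.21 and -2.09.

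Killer receptor and cytotoxic granule genes had 7 of 17 lower without overlap and 2 higher, and 1 of the 17 was above background on both total arrays. That gene was Nkg7, a granule membrane protein gene, with 87.1 and 53.6 on the bulge arrays, against 318 and 709 on the total arrays. Its log2 difference was -2.80 ± 0.55 (SE), at least 3.17-fold lower in the bulge group. The adaptor gene Tyrobp had -1.37, Prf1, which encodes perforin, -0.53, Hcst -0.43 and Klrg1 -0.05. Among 14 genes of residence, homing and cytokine receptors, 5 were lower without overlap. Il7r, the interleukin 7 receptor, had 51.0 and 65.1 on the bulge arrays, against 243 and 241 on the total arrays (log2 difference of -2.07 ± 0.38, SE). Cd44, which keratinocytes also make, had -1.02, Il15ra -0.07, Ccr6 -0.23 and S1pr1 0.44. Selplg, named after its values were seen, had 38.7 and 14.0 on the bulge arrays, against 187 and 238 on the total arrays. Its difference of -3.18 was the lowest of the list, in which 10 genes had differences below 0 and 4 above it.

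Markers of conventional T cell subsets and their cytokines were mostly dim. Of 11 measured, 10 were under the background level on both total arrays. The exception was Tnf, with 40.7 and 16.7 on the bulge arrays, against 183 and 155 on the total arrays. Cd8a had 75.7 and 63.6 on the bulge arrays, against 50.7 and 53.8 on the total arrays, and Il17a, Il4 and Cd40lg had differences of 0.52, -0.02 and 0.67. Cd4 and Foxp3, looked up after their values were known, were also under the background level on all 4 arrays.

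Of 13 transcription factor genes used by T cells, 3 were lower and 3 higher without overlap, counts near the shares over all genes (20.5% lower and 18% higher). Bcl11b had 577 and 711 on the bulge arrays, against 1657 and 2149 on the total arrays, and Gata3 had 361 and 345, against 1695 and 1212. Both genes are also active in keratinocytes or hair follicles. Id2, an inhibitor of E proteins, rose by 2.90 (adjusted p of 0.0297 in limma with the trend), with 4196 and 4988 on the bulge arrays, against 662 and 564 on the total arrays. Id3 had a difference of 2.64 and Nfatc1 of 1.80 without passing.

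Partners of the members' proteins were looked up for their role after the values were known. Itgb7, the β7 chain that pairs with αE, was under the background level on all 4 arrays, with 55.5 and 17.6 on the bulge arrays, against 24.5 and 118 on the total arrays. Klrc1 and Klrc2, the NKG2 partners of CD94, and Cd48, the ligand of CD2, were also under it on all 4. Cdh1, which encodes E-cadherin, had 1885 and 898 on the bulge arrays, against 2357 and 1765 on the total arrays, with overlapping groups and a difference of -0.65 ± 0.51 (SE). Among 15 measured epithelial partner genes, 5 were lower and 3 higher without overlap, where 20.5% and 18% of all genes were. Their median was -0.25. Cxcl16 had a difference of 0.62 and Plxnb2, a semaphorin receptor gene, 0.08.

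Markers of other cell types were read on the same arrays. Over all genes, 20.5% were lower and 18% higher without overlap, and 0.524% were called lower in the trended fit. Of 17 pan-leukocyte genes, 8 were lower without overlap and 0 higher, and their median was -0.94. With the probe sets of each gene averaged, 12 were lower without overlap and the median was -0.97. Of the 17, 15 had differences below 0 and 2 above it. Laptm5, a lysosomal protein gene of blood cells, had 205 and 279 on the bulge arrays, against 447 and 383 on the total arrays. The phosphatase gene Ptpn6 had 0.12, and Rac2, under the background level on both total arrays, -0.22. These 3 were named as the brightest of the list. Cd53, named after its values were seen, had 45.7 and 45.9 on the bulge arrays, against 185 and 226 on the total arrays. Its difference was -2.16. Of 17 Langerhans cell and myeloid markers, 14 were lower without overlap and 4 were called in the trended fit. Their median was -1.40 and their summed signal 1850 and 2234 on the bulge arrays, against 13666 and 14788 on the total arrays. H2-Aa, an MHC class II gene, had 305 and 506 on the bulge arrays, against 4977 and 4184 on the total arrays. The other 3 called were Csf1r, H2-Ab1 and Ctss, and H2-Eb1 had a difference of -2.20 without passing. Cd207, the defining gene of Langerhans cells, looked up after its values were known, had 129 and 215 on the bulge arrays, against 325 and 576 on the total arrays. All 5 measured melanocyte markers were lower without overlap, with a median of -0.83, among them Dct at -1.22, Tyrp1 at -1.45 and Pmel at -0.83. The part of these cells in the members' differences was not tested.

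Other lists gave other values. All 7 measured basal keratinocyte markers were above background on all 4 arrays, with 0 lower and 4 higher without overlap. Their summed signal was 100542 and 93850 on the bulge arrays, against 74507 and 97286 on the total arrays, and Krt5, Krt14 and Krt15 had differences of 0.05, -0.30 and 0.36. Fibroblast markers had a summed signal of 4335 and 1764 on the bulge arrays, against 701 and 557 on the total arrays, and Col1a2 alone made up 3852 and 1541 of it on the bulge arrays, against 343 and 286 on the total arrays. The median over the 6 genes was -0.48, with 3 lower without overlap (Dcn at -0.55, Col3a1 at -0.81 and Pdgfra at -1.84) and 1 higher (Col1a2 at 2.96), beside Col1a1 at 0.99 and Lum at -0.41. B cell, mast cell, neutrophil, endothelial and erythroid markers had medians of -0.40, 0.14, -0.16, 0.08 and 0.52. Of their 26 measured genes, Kdr alone was above background on both total arrays. The brightest of each were Cd22 (-0.35), Ms4a1 (-0.46) and Blk (0.28), Cpa3 (0.20), Ms4a2 (0.21) and Cma1 (-0.69), Ngp (0.02), Mpo (-0.16) and Csf3r (-0.79), Kdr (-0.31), Esam (0.13) and Cdh5 (0.04), and Hba-a1 (0.85) and Alas2 (0.20), each given as a log2 difference.

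**Figure D4:**
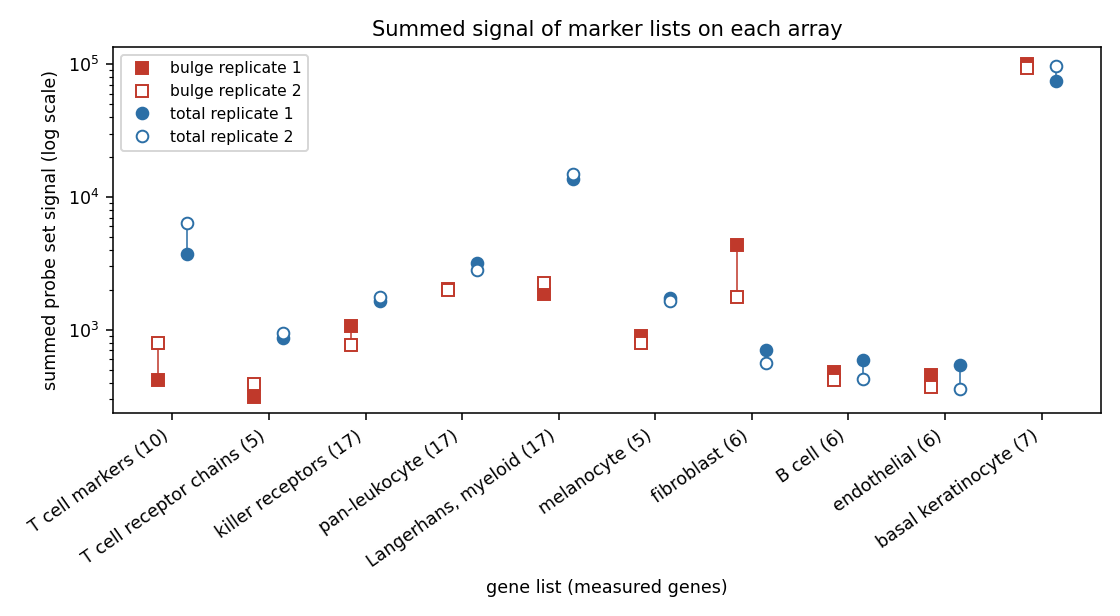
Summed probe set signal (log scale) of marker lists on each array, with bulge arrays as squares on the left and total arrays as circles on the right, and the number of measured genes in brackets. The T cell markers run from 417 to 788 on the bulge arrays and from 3703 to 6345 on the total arrays, and the Langerhans cell and myeloid list is separated in the same direction, while the basal keratinocyte sums overlap.

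Genes whose pattern over the 4 arrays was most like that of the members were found by the distance between centred log2 profiles, against the mean profile of the 8 members above background on both total arrays. Among 6382 other genes above background on both total arrays, the nearest were Csf1r, Krt79, Krt1, E2f8, Ctla2a, Ctla2b, Ripply3 and Il33, at distances of 0.40 to 0.57, where the median gene lay at 3.54. The members themselves lay at 0.41 (Cd3e) to 1.27 (Cd3d). Their closeness was partly set in advance, because 8 of them made the mean profile. The members in the profile and the other genes were filtered on the total arrays, where the members were higher. Csf1r, the receptor of colony stimulating factor 1 on myeloid cells, had 236 and 300 on the bulge arrays, against 2316 and 4803 on the total arrays. Ctla2a and Ctla2b, a pair of near-identical protease inhibitor genes first found in activated T cells, had log2 differences of -3.76 ± 0.60 and -3.46 ± 0.45 (SE), and their probe sets may share transcripts. The list also held the epithelial keratin genes Krt79 (-3.46) and Krt1 (-3.31), the alarmin gene Il33 (-3.72), the cell cycle factor gene E2f8 (-3.87) and Ripply3 (-3.64). Each profile holds 4 values in 2 groups, so likeness is a description of these arrays and no more.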

How the data were processed

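The deposited table holds probe set intensity on a linear scale for 4 Affymetrix arrays, and the values themselves show a mean of 500.0 on each array after trimming 2% at each end, with unequal medians. RNA input was 200 ng, amplified from an oligo-dT T7 primer, per the labels' protocols. Which tool made the values is not given in the sources used here, although RMA, affy 1.36, R 2.15.1 and GCOS appear in the submitters' processing notes. Log2 of the deposited intensity was taken. Of 22690 probe sets, 20380 had 1 symbol in the platform annotation, 691 had several and 1555 none, besides 64 controls. Symbols were updated by Entrez ID from RefSeq, and 20351 matched. The probe set with the highest mean log2 signal represented each of 12393 genes. The principal test was two-sided limma 3.58.1 (R 4.3.3) with group as the only term, Benjamini-Hochberg adjusted over all genes at 0.05. It was also run on simulated arrays with independent noise. Replicate differences here correlated between the groups, so that run does not bear on the calls. Named genes were the members, the 3 brightest genes of each list (5 for lymphocyte lists), those called, and the 8 nearest profiles, besides genes marked in the text as looked up or named after their values were seen. The members and lists were chosen with earlier results of these data known.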

Additional observations from a re-analysis of the deposited data

How the results depend on the processing

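All 10 members were lower in the bulge group under all 12 alternatives that kept them, with log2 differences from -5.13 to -1.05. Groups stayed without overlap for all 10 in each, except that the filter on dim genes kept 3 members (Thy1, Cytip and Arhgdib), all 3 without overlap and with a median of -2.997. After that filter 69 genes were called higher and 73 lower, 1.08% of those kept, with 1 member, Cytip (adjusted p of 0.0260), which was under the background level on both bulge arrays and passed through its total arrays. With the intensity trend 69 were higher and 65 lower, with the 3 members named in the report. With log2 of signal plus 32, 18 were higher and 19 lower (0.153%), 1 member was called, Ptprc (adjusted p of 0.0495), and the members' median was -2.47, since the offset compresses dim values. Array median centring, quantile normalization, a robust prior, averaged probe sets and the replicate block called 0 genes. With each array left out, the members' median lay between -3.97 and -2.84. The trended fits without each array, chosen after seeing the data, called 171 genes higher, 217 lower and 5 members (Ptprc, Cd3g, Itgae, Klrd1 and Cytip) without bulge replicate 1, and 153, 197 and 9 (all but Cd3d) without bulge replicate 2. Without total replicate 1 or total replicate 2 they called none, and the plain fits without any array also called none. The lone array left in a group is assumed to vary like the other group. The replicate numbers are not tied to animals or days by the labels. Replicate differences correlated between the groups at r = 0.61 over 6755 genes. The trended fit with the replicate block, added after seeing the data, called 467 of 12393 genes higher and 450 lower. All 10 members were among those called lower. Members above background on both total arrays numbered 6 with the 99th and 8 with the 90th percentile as the level. Of 398 counts and medians of the other gene lists under the 12 alternatives, 79 moved beyond a set limit.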
